A study of Mus musculus with 62 samples.

Results

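The prefrontal cortex of mice given 6 mg/kg of a polychlorinated biphenyl (PCB) mixture by mouth was compared with that of vehicle mice. The libraries were chosen by their tissue and treatment labels alone, and 10 of the 62 libraries of the series qualified: 6 at 6 mg/kg, numbered 52, 53, 54, 55, 56 and 58, and 4 vehicle libraries at 0 mg/kg, numbered 3, 4, 7 and 8. All came from female C57BL/6 mice, a common inbred strain, with no transgene or deletion named in the labels. RNA came from tissue punches, so a library pools the cells of a small block of cortex. A further 5 prefrontal libraries at 0.1 mg/kg and 6 at 1 mg/kg of the same mixture entered the same fit and serve as the doses between. Age, the number of doses and the time of collection are not given in the sources used here. The labels give each library a number but do not say how the animals were housed or collected, so p-values measure the spread between these libraries.

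PCBs are persistent chlorinated industrial chemicals that accumulate in fat and reach the brain. The MARBLES mixture is named after a birth cohort in which autism risk is studied and was made to resemble the PCB congeners found in its participants. Some PCBs act on the aryl hydrocarbon receptor, others on the ryanodine receptors that release calcium from intracellular stores, and several disturb thyroid hormone signalling. In cortical neurons, synaptic activity raises calcium and drives the extracellular signal-regulated kinases, which belong to the mitogen-activated protein (MAP) kinases. These kinases act through factors such as CREB to switch on immediate early genes (Fos, Egr and Nr4a families), while dual-specificity phosphatases (Dusp) and Sprouty proteins shut the kinases off again.

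The 10 libraries held between 8722232 and 11672016 counts, and 14838 genes were tested. Levels are CPM, counts divided by library sizes that edgeR's trimmed mean of M values had scaled, and differences are log2 fold changes of 6 mg/kg minus vehicle. The cortical identity of the tissue was checked with 3 marker genes of cortical excitatory neurons. Slc17a7, the vesicular glutamate transporter of cortical neurons, averaged 1664 ± 159 CPM in the 4 vehicle libraries and 1364 ± 188 CPM in the 6 at 6 mg/kg (mean ± SD here and below), and Tbr1, a transcription factor of deep cortical neurons, averaged 196 ± 23.2 and 191 ± 30.1 CPM. Neurod6, a transcription factor of cortical projection neurons, averaged 53.1 CPM in vehicle. Genes of striatal neurons were present too: the summed CPM of 11 of them ranged from 1280 to 3319 in vehicle and from 1595 to 3158 at 6 mg/kg.

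No gene passed an adjusted p of 0.05 in the direct comparison by edgeR's quasi-likelihood test, where the smallest adjusted p was 0.104. At an unadjusted p under 0.05 there were 1376 genes (9.27% of those tested), of which 635 (4.28%) were higher and 741 (4.99%) lower at 6 mg/kg. In 461 genes (3.11%) the 2 groups did not overlap, 176 (1.19%) being higher in every 6 mg/kg library and 285 (1.92%) lower. DESeq2's Wald test on the same counts called 27 genes, 5 higher and 22 lower, and gave no adjusted p to 8630 of the 14838. The spread of all differences was small, with a median log2 fold change of 0.00 and an SD of 0.24 over all tested genes.

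The 12 lower genes with the smallest p had log2 fold changes between -0.90 and -0.31 and edgeR adjusted p between 0.104 and 0.202. In all 12 of them every 6 mg/kg library lay below every vehicle library, as in 1.92% of all tested genes. They were, in order of p, Pdgfb, Pcdh1, Pak6, Tnk2os, Calhm2, Dusp4, Sdc3, Fam131b, Chd3, Neurl1b, Tle3 and Jade2. They were chosen by their p in this contrast, so these counts only describe them.

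Pdgfb (Entrez 18591, chr15:79995865-80024614 in GRCm38) encodes the B chain of platelet-derived growth factor, which neurons and endothelial cells secrete and which holds pericytes on capillaries. Its level was 52.6, 48.1, 53.9 and 53.8 CPM in vehicle libraries 3, 4, 7 and 8, and at 6 mg/kg the lowest, median and highest libraries had 28.6, 33.4 and 45.4 CPM. Every 6 mg/kg library was below the lowest vehicle library, and library 54 was the nearest to it. The means were 52.1 ± 2.75 CPM (SD, n = 4) and 35.2 ± 5.93 CPM (SD, n = 6), for a log2 fold change of -0.56 (SE 0.102, adjusted p 0.104 by edgeR). The other members of the PDGF family were also lower on average, but none had a p under 0.05. The ligand Pdgfa averaged 46.5 ± 3.25 CPM in vehicle and 41.5 ± 3.33 CPM at 6 mg/kg, a log2 fold change of -0.16. Pdgfc, Pdgfd and the receptors Pdgfra and Pdgfrb had log2 fold changes of -0.18, -0.19, -0.07 and -0.11. The median of the 6 tested family members was -0.17 against 0.00 over all genes.

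Pcdh1 (Entrez 75599) encodes protocadherin 1, a homophilic adhesion protein of the delta class. It stood at 369, 396, 414 and 370 CPM in vehicle libraries 3, 4, 7 and 8 and had a lowest, median and highest value of 221, 274 and 297 CPM at 6 mg/kg. Every 6 mg/kg library was below every vehicle library, with 55 and 56 the lowest. The means were 387 ± 21.7 and 262 ± 30.1 CPM (SD, n = 4 and 6), for a log2 fold change of -0.56 (SE 0.105, adjusted p 0.104 by edgeR). Of 10 delta protocadherins tested, Pcdh1 was the only member with a p under 0.05, as were 4.99% of all genes in that direction. Pcdh19 averaged 40.2 ± 5.61 and 32.1 ± 6.58 CPM, with overlapping groups and a log2 fold change of -0.33 (SE 0.210), while Pcdh9 and Pcdh11x averaged 129 and 16.4 CPM in vehicle and 129 and 16.7 CPM at 6 mg/kg. The median of the class was -0.12.

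Pak6 (Entrez 214230, chr2), a p21-activated kinase of neurons, had 94.3, 89.3, 98.0 and 117 CPM in the vehicle libraries and 72.0, 74.7 and 77.3 CPM as lowest, median and highest value at 6 mg/kg. Its 6 mg/kg libraries had an SD of 1.87 CPM around a mean of 74.6 and all lay below the vehicle libraries, and its log2 fold change was -0.42 (SE 0.0801). Calhm2 (Entrez 72691, chr19), a calcium homeostasis modulator that forms a large-pore channel, had 9.60, 10.1, 10.5 and 7.65 CPM in vehicle and 5.06, 5.94 and 6.85 CPM at 6 mg/kg. Vehicle library 8 came closest to the 6 mg/kg range, and the log2 fold change was -0.67 (SE 0.134). Tnk2os (Entrez 675921, chr16) is annotated on the strand opposite to Tnk2, and since the use of strand in the counting is not given in the sources used here, its reads cannot be told apart from those of its partner. It had 19.8, 25.7, 27.7 and 26.7 CPM in vehicle and 13.3, 15.3 and 19.2 CPM at 6 mg/kg, so vehicle library 3 lay just above the highest 6 mg/kg library. The remaining lower genes include Sdc3 (syndecan 3, a heparan sulphate proteoglycan of axons), at 283 ± 5.71 and 225 ± 17.6 CPM, and Chd3 (a remodeller of the NuRD complex), at 689 ± 21.2 and 535 ± 52.9 CPM. Neurl1b, a ubiquitin ligase of Notch signalling, averaged 76.0 and 53.9 CPM. Tle3, a Groucho corepressor, and Jade2, a subunit of a histone acetylation complex, had log2 fold changes of -0.45 and -0.44.

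**Figure D1:**
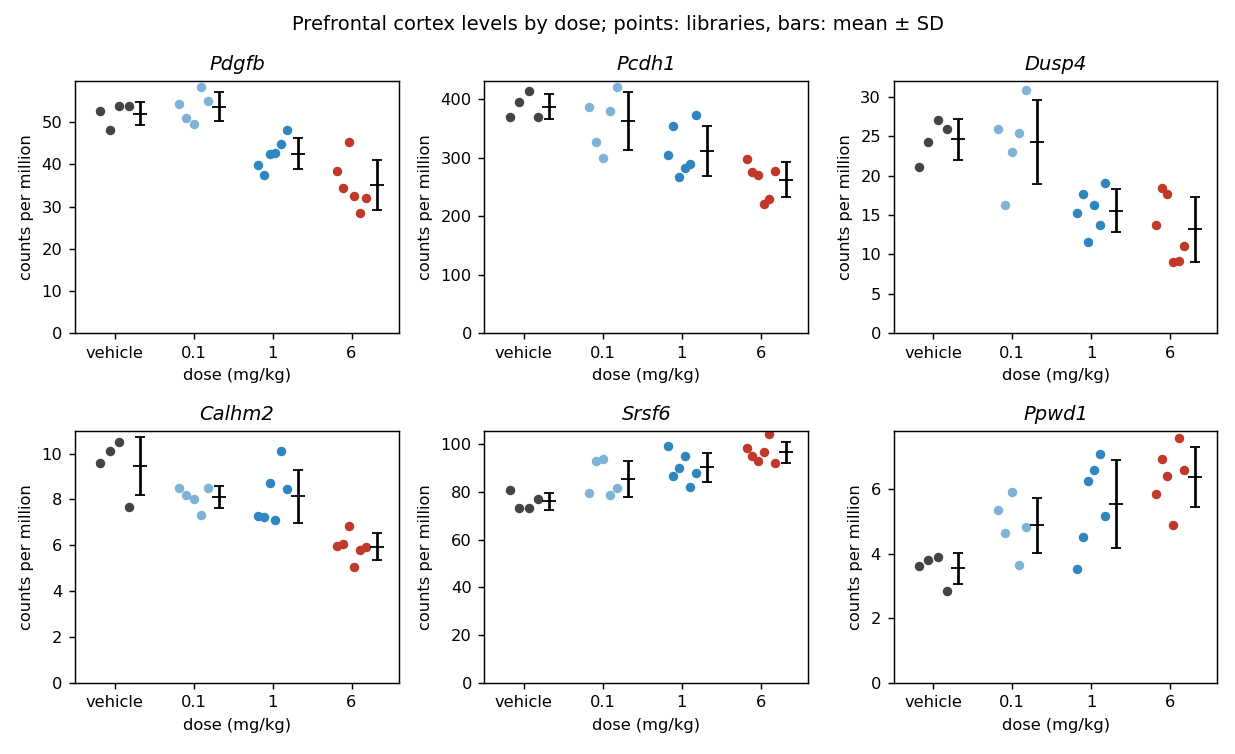
CPM of 6 genes in the prefrontal cortex against dose (mg/kg), each point a library and each bar the mean ± SD of a group. The 6 mg/kg libraries of Pdgfb, Pcdh1, Dusp4 and Calhm2 sit below all 4 vehicle libraries, and those of Srsf6 and Ppwd1 sit above them.

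Dusp4 (Entrez 319520, chr8:34807610-34819894 in GRCm38) encodes a nuclear phosphatase that inactivates MAP kinases and is itself induced by them. Vehicle libraries 3, 4, 7 and 8 had 21.1, 24.2, 27.1 and 25.9 CPM, and the lowest, median and highest 6 mg/kg libraries had 9.0, 12.4 and 18.4 CPM. Libraries 55 and 56 were the lowest and 53 and 54 the highest, and none reached the vehicle range. The means were 24.6 ± 2.61 and 13.2 ± 4.11 CPM (SD, n = 4 and 6), for a log2 fold change of -0.90 (SE 0.188, adjusted p 0.150 by edgeR), the largest of the 12. Of 16 tested genes of MAP kinase feedback, 3 were lower at p under 0.05 (18.8%, against 4.99% of all genes), none was higher (against 4.28%), and the median log2 fold change was -0.17. Besides Dusp4 these were Spry4, a Sprouty inhibitor, at 17.6 ± 0.949 and 12.8 ± 2.48 CPM (log2 fold change -0.46, SE 0.160), and Dusp8, at 207 ± 2.83 and 185 ± 18.8 CPM (log2 fold change -0.17, SE 0.0774). Dusp1, Dusp5 and Dusp6 had log2 fold changes of -0.50, -0.42 and -0.30 with p of 0.0767, 0.0795 and 0.0853, and in each the groups overlapped. Dusp6, at 83.6 ± 2.87 CPM in vehicle, ranged from 52 to 107 CPM at 6 mg/kg, where library 54 had the highest value. Dusp7, Dusp14, Dusp16, Spry1, Spry2 and Spred1 had log2 fold changes between -0.07 and 0.12. Dusp2, Spry3, Spred2 and Spred3 had -0.23, -0.13, -0.24 and -0.19, each with a p above 0.05.

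The immediate early genes had the lowest median of all 39 lists other than blood genes. All 25 listed genes were tested: 8 were lower at p under 0.05 (32%, against 4.99% of all genes), none was higher (against 4.28%), 21 of the 25 had a negative log2 fold change, and the median was -0.31. The 8 were Fosb, Nr4a3, Jun, Egr2, Trib1, Fosl2, Fos and Gadd45b. The smallest edgeR adjusted p among them was 0.280, and only in Jun did the groups not overlap. Arc, a synaptic effector named after its values were seen, had a log2 fold change of -0.82 with a p of 0.0999, while Bdnf, Homer1, Klf4 and Jund had -0.02, 0.07, 0.03 and 0.07.

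The 250 bases upstream of the annotated start of 4 of these activity-regulated genes are shown because CREB acts at such promoters. They were read from RefSeq promoters of GRCm38.p6, the build of mm10, and capitals mark TGACG or its complement CGTCA, the core of the cAMP response element at which CREB binds. Fosb (chr7:19310046-19310295, minus strand), Nr4a3 (chr4:48045055-48045304, plus strand) and Jun (chr4:95052223-95052472, minus strand) had the smallest p of the list, and Dusp1 (chr17:26508473-26508722, minus strand) is a phosphatase whose window holds the full palindrome TGACGTCA.
Fosb: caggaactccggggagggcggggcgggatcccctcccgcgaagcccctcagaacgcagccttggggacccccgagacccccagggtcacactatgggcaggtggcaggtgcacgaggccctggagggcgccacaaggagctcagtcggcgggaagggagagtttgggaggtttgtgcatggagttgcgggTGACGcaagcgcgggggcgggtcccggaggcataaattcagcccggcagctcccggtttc
Nr4a3: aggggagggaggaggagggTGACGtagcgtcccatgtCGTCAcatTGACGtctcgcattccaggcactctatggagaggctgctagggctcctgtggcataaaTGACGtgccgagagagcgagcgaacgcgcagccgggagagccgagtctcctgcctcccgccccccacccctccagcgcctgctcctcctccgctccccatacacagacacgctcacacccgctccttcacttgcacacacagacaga
Jun: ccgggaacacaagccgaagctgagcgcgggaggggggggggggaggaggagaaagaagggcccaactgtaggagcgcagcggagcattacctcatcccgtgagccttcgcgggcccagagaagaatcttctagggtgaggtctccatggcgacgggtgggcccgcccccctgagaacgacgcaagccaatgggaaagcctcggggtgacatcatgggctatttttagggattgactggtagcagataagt
Dusp1: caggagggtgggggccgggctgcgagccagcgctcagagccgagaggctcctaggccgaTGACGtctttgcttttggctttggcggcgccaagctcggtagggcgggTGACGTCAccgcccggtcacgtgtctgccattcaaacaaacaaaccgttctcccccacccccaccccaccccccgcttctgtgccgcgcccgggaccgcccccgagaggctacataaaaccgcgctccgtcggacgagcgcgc
Counting both strands, the core begins at position -60 in Fosb and at -231, -213, -205 and -147 in Nr4a3, and the Jun window holds none. In Dusp1 it begins at -191, -143 and -140, the last pair overlapping within the palindrome. Of the 25 tested immediate early genes, 18 had an entry and 13 of these (72.2%) held the core, against 29.5% of 11738 tested genes with an entry and 19.8% of 27025 genes in the table. The share was 5 of 13 (38.5%) for MAP kinase feedback, 9 of 14 (64.3%) for the SR splicing factors described below, 7 of 15 (46.7%) for cholesterol synthesis, 7 of 22 (31.8%) for interferon genes and 5 of 17 (29.4%) for clock genes. The full palindrome was in 2.99% of the tested genes. A match is a description of the letters and says nothing of binding in these samples. Pdgfb, Pcdh1, Dusp4 and Arc have no entry in the table.

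Library 54 was the highest 6 mg/kg library for Fosb, Nr4a3, Egr2 and Fos, but not for Jun. Fosb, a Fos family transcription factor, had 22.9, 26.3, 26.8 and 34.2 CPM in vehicle libraries 3, 4, 7 and 8 and 13.4, 15.1 and 25.4 CPM as lowest, median and highest value at 6 mg/kg. Only library 54, the highest, entered the vehicle range, and the log2 fold change was -0.73 (SE 0.200, edgeR adjusted p 0.280). Nr4a3, an orphan nuclear receptor induced by activity, had 37.2, 42.5, 37.8 and 48 CPM in vehicle and 11.5, 21.2 and 41.7 CPM at 6 mg/kg. Again library 54 alone reached vehicle levels, and the log2 fold change was -0.89 (SE 0.276). Jun had 64.7, 69.5, 94.4 and 62.4 CPM in vehicle and 50.7, 57.2 and 60.2 CPM at 6 mg/kg, a log2 fold change of -0.36 (SE 0.117). For Jun the groups were separated, library 54 had 59.3 CPM and library 58 the highest value, and vehicle library 7 was far above the other vehicle libraries. Egr2 and Fos, named after their values were seen, showed the same arrangement: Egr2 had 2.74, 6.12 and 15.6 CPM as lowest, median and highest value at 6 mg/kg against 13.2 to 22.1 CPM in vehicle, and Fos had 11.6, 21 and 38.2 CPM against 34.2 to 40.5 CPM. In both genes library 54 was the highest at 6 mg/kg and lay within the vehicle range.

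Over the whole list, the median deviation of a library from the vehicle mean was -0.09, -0.16, 0.03 and 0.17 in vehicle libraries 3, 4, 7 and 8. At 6 mg/kg it was -0.35, -0.50, 0.07, -0.34, -0.65 and -0.25 in libraries 52, 53, 54, 55, 56 and 58. All but library 54 were below the lowest vehicle library. Without library 54 the list had 11 genes lower at p under 0.05 and a median of -0.38. Without vehicle library 7 it had 3, without vehicle library 8 it had 5 with a median of -0.21, and without both of these and library 55 it had 0 with a median of -0.14. Over all genes the lower calls in these fits numbered 661 of 14836, 474 of 14991, 622 of 14991 and 373 of 15125, against 741 of 14838 with all libraries.

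**Figure D2:**
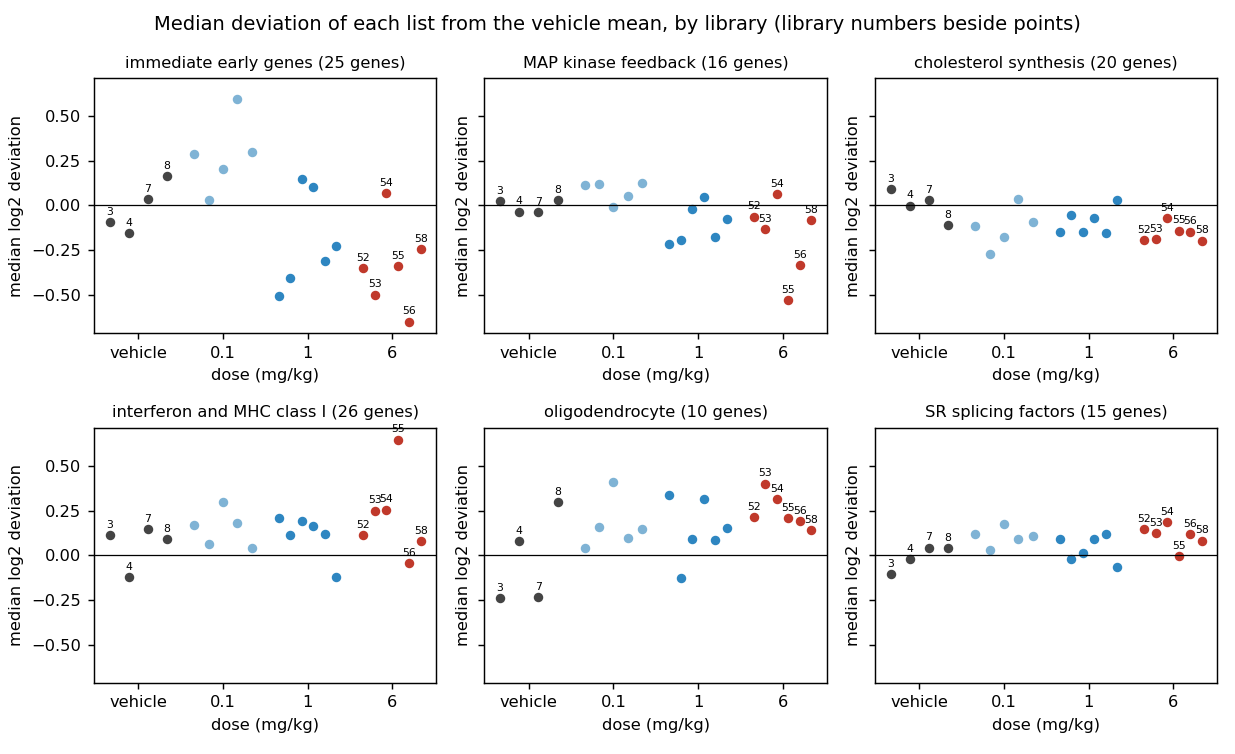
Median log2 deviation of 6 gene lists from the vehicle mean in every prefrontal library, by dose (mg/kg), with library numbers beside the vehicle and 6 mg/kg points. For the immediate early genes library 54 (0.07) lies among the vehicle libraries and the other 6 mg/kg libraries below them, and for interferon genes library 55 (0.65) lies above all others.

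The lists of clock genes and glucocorticoid response genes had members in both directions. Per1, a period gene of the circadian clock that glucocorticoids and CREB also induce, had 127, 130, 147 and 146 CPM in vehicle libraries 3, 4, 7 and 8 and 52.5, 87.7 and 124 CPM as lowest, median and highest value at 6 mg/kg. All 6 mg/kg libraries were below the vehicle libraries, library 54 by the narrowest gap, and the log2 fold change was -0.68 (SE 0.213, edgeR adjusted p 0.344). Bhlhe40, a repressor of clock genes, averaged 177 ± 16.1 and 130 ± 29.3 CPM (log2 fold change -0.45, SE 0.138). Dbp and Usp2, whose transcripts cycle with the clock, were higher, with Dbp at 102 ± 22.0 and 130 ± 11.5 CPM (log2 fold change 0.34, SE 0.134). Of 19 clock genes 2 were higher and 2 lower at p under 0.05 (21.1% in all, against 9.27% of all genes), and the median was -0.01. Among 16 glucocorticoid response genes 1 was higher and 2 were lower (18.8% in all). Cdkn1a, a cell cycle inhibitor, averaged 27.9 ± 2.70 and 18.9 ± 4.45 CPM (log2 fold change -0.56, SE 0.150), and Mt1, a metallothionein, 132 ± 9.47 and 173 ± 20.5 CPM (log2 fold change 0.40, SE 0.137). Fkbp5, a chaperone that glucocorticoids induce, had a log2 fold change of -0.15 with a p of 0.275.

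Genes of the excitatory synapse had small differences, and none passed the adjusted threshold. Of 37 glutamate receptors and scaffolds, 6 were lower at an unadjusted p under 0.05 (16.2%, against 4.99% of all genes), none was higher, 31 had a negative log2 fold change and the median was -0.12. The scaffold genes Dlg3 and Shank1 averaged 236 ± 7.08 and 500.5 ± 79.1 CPM in vehicle and 203 ± 13.9 and 393 ± 55.2 CPM at 6 mg/kg. Of the receptor genes, Grm8 and Grik3 were lower at p under 0.05 (log2 fold changes of -0.39 and -0.37), while Gria1 and Grin2b had -0.10 and -0.29 with p of 0.268 and 0.141. None of 13 subunits of GABA A receptors had a p under 0.05, and their median was 0.02. Of 34 autism risk genes, 4 were lower (11.8%) and none higher, with a median of -0.16. They included Ankrd11, Tsc1 and Kdm6b. Ankrd11, a chromatin regulator, averaged 256 ± 21.8 and 214 ± 24 CPM, and Tsc1, an inhibitor of mTOR signalling, 87.8 ± 2.60 and 70.0 ± 11.0 CPM. Both lists shrank when GC content and transcript length were modelled, to medians of -0.02 for the synaptic list and -0.04 for the autism list.

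Genes of the routes by which PCBs are known to act were counted in the same way. Of 29 xenobiotic response genes 2 were higher and 1 lower at p under 0.05 (10.3% in all, close to the 9.27% of all genes). Cyp1b1 and Tiparp, targets of the aryl hydrocarbon receptor, averaged 3.83 and 16.2 CPM in vehicle and 3.59 and 14.0 CPM at 6 mg/kg, with p of 0.710 and 0.247, and Cyp1a1 did not pass the filter on low counts. Aldh1a1, a retinaldehyde dehydrogenase, had 35.2, 42.6, 31.3 and 33.0 CPM in vehicle and 42.7, 46.2 and 51.7 CPM as lowest, median and highest value at 6 mg/kg, a log2 fold change of 0.40 (SE 0.109, adjusted p 0.285 by edgeR). Its groups met without overlapping, since vehicle library 4 lay just under the lowest 6 mg/kg library. Gstm1, a glutathione transferase, averaged 125 ± 5.27 and 150 ± 14.5 CPM (log2 fold change 0.26, SE 0.106). Of 22 genes of calcium release from stores 3 were lower (13.6%, against 4.99% of all genes) and none higher (against 4.28%). These were Orai2, a plasma membrane calcium channel subunit, at 99.3 ± 3.99 and 80.8 ± 7.78 CPM, Jph4, which ties the endoplasmic reticulum to the plasma membrane, at 515 ± 55 and 433 ± 37.9 CPM, and the kinase Camk2a, at 3117 ± 320 and 2699 ± 249 CPM. The ryanodine receptors Ryr1, Ryr2 and Ryr3 had log2 fold changes of 0.10, -0.26 and -0.13 with p of 0.739, 0.191 and 0.685. Of 17 thyroid hormone genes only Thra, the alpha receptor, had a p under 0.05, at 866 ± 64.1 and 736 ± 83.8 CPM (log2 fold change -0.23, SE 0.0975). Klf9, a thyroid hormone target, had a difference of 0.04. Of 24 monoamine genes 1 was higher and 1 lower (8.33% in all, against 9.27% of all genes), and the median was 0.04. Adra2a, the alpha-2A adrenergic receptor, averaged 37.2 ± 2.04 and 30.4 ± 1.11 CPM, and Slc18a2, the vesicular monoamine transporter, 3.87 ± 0.788 and 5.91 ± 0.711 CPM. In both genes the groups did not overlap, as in 3.11% of all genes.

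Of 15 DNA methylation genes, 3 were lower (20%) and none higher, where 4.99% of all genes were lower and 4.28% higher, shares that also stand beside the counts that follow. Tet3, which oxidises 5-methylcytosine, had 70.6, 76.4, 76.5 and 77.5 CPM in vehicle and 30.9, 49.8 and 63.1 CPM as lowest, median and highest value at 6 mg/kg. Its groups did not overlap, library 55 was the lowest, and the log2 fold change was -0.64 (SE 0.161, edgeR adjusted p 0.242). Dnmt3a, a de novo methyltransferase, averaged 82.7 ± 3.94 and 66.8 ± 15.2 CPM and overlapped between groups. Of 20 genes of cholesterol synthesis 4 were lower (20%) and none higher, 17 had a negative log2 fold change and the median was -0.17. Srebf2, the transcription factor of the pathway, averaged 367 ± 26.3 and 319 ± 12.9 CPM, and its target Sqle, an enzyme of sterol synthesis, 82.6 ± 7.46 CPM in vehicle and 69.8 ± 4.86 CPM at 6 mg/kg. The list kept a median of -0.18 under the GC and length offset, with 7 genes lower, where 687 of all 14141 genes tested were lower. Without vehicle library 7 the median was -0.14 with 2 genes lower, beside 474 of 14991 genes. In the NRF2 list of 21 genes 3 were higher and 1 lower, in the endoplasmic reticulum stress list of 22 genes 3 were higher and 1 lower, in the heat shock list of 19 genes 2 were lower, and of 16 neuropeptide genes none had a p under 0.05.

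The 12 higher genes with the smallest p had log2 fold changes between 0.32 and 1.43 and edgeR adjusted p between 0.177 and 0.257. In 11 of the 12 every 6 mg/kg library was above every vehicle library, as in 1.19% of all tested genes, the exception being Rgs4. Srsf6 (Entrez 67996, chr2:162931508-162937121 in GRCm38), an SR protein that selects splice sites, had 80.6, 73.4, 73.1 and 76.9 CPM in vehicle libraries 3, 4, 7 and 8 and 92.1, 95.9 and 104 CPM as lowest, median and highest value at 6 mg/kg. The groups were clearly separated, with an SD of 3.51 and 4.38 CPM around means of 76.0 and 96.6, and the log2 fold change was 0.35 (SE 0.0767, edgeR adjusted p 0.177). Of 15 SR splicing factors 3 were higher (20%, against 4.28% of all genes) and none lower, and the median was 0.10. The groups did not overlap in 3 of the 15, Srsf6, Srsf3 and Srsf11, the last with a p above 0.05. Srsf3 averaged 114 ± 2.49 and 131 ± 11.2 CPM and Srsf5 133 ± 11.7 and 159 ± 13.8 CPM. Under the GC and length offset the list median was 0.03 with 1 gene higher, where 597 of all 14141 genes tested were higher.

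Several of the other higher genes were of low abundance. Ppwd1 (Entrez 238831, chr13), a prolyl isomerase of the spliceosome, had 3.63, 3.79, 3.89 and 2.85 CPM in vehicle and 4.88, 6.50 and 7.57 CPM at 6 mg/kg, a log2 fold change of 0.84 (SE 0.197). Library 55 was its lowest 6 mg/kg library and still lay above vehicle. BC037704 (Entrez 100502982, chr19), of unassigned function, had 0.69, 0.42, 0.65 and 0.80 CPM in vehicle and 1.24, 1.77 and 2.26 CPM at 6 mg/kg. Zbtb8a (Entrez 73680, chr4), a zinc finger protein, had 5.45, 6.52, 3.56 and 6.28 CPM in vehicle and 7.50, 8.85 and 10.1 CPM at 6 mg/kg, with vehicle library 7 the lowest. Ube2b (Entrez 22210, chr11), a ubiquitin-conjugating enzyme, had 125, 126, 111 and 125 CPM in vehicle and 131, 153 and 183 CPM at 6 mg/kg. For Ube2b the gap between the groups was narrow and library 56 was the highest. Rgs4, a regulator of G protein signalling abundant in cortex, averaged 524 ± 28.6 and 670 ± 74.2 CPM, and Ntsr2, the neurotensin receptor of astrocytes, 92.6 ± 5.85 and 117 ± 8.51 CPM. Ndufaf4, an assembly factor of respiratory complex I, averaged 22.1 ± 1.25 and 29.4 ± 1.92 CPM. Msantd2, Kiz, AI593442 and Il12a had log2 fold changes of 0.74, 0.47, 0.32 and 1.34, the last at 0.916 ± 0.284 and 2.34 ± 0.636 CPM.

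Interferon and antigen presentation genes had a positive median, and none passed the adjusted threshold. Of 26 tested 5 were higher at an unadjusted p under 0.05 (19.2%, against 4.28% of all genes) and none lower, 21 had a positive log2 fold change and the median was 0.21. B2m, the light chain of MHC class I, averaged 54.7 ± 6.64 and 71.1 ± 10.7 CPM (log2 fold change 0.38, SE 0.121, edgeR adjusted p 0.348), and the interferon-induced Oasl2 and Gbp3 had 1.83 ± 0.765 and 3.0 ± 0.767 CPM in vehicle and 3.20 ± 0.752 and 4.59 ± 0.278 CPM at 6 mg/kg. The list rested in part on library 55, whose median deviation was 0.65 while the other 6 mg/kg libraries lay between -0.04 and 0.26 and vehicle between -0.12 and 0.14. Without library 55 the median was 0.09, with 3 genes higher, where 558 of all 14805 genes tested were higher. In the same library, the summed CPM of 76 ribosomal protein genes was 14270 and that of 91 respiratory chain genes 13140, against at most 11020 and 10840 in the other 9 libraries. Whether these sums and the interferon values are linked was not tested.

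Markers of cell types were compared because bulk RNA cannot tell fewer cells of a type from less RNA per cell. None of the 15 cell type lists differed in summed CPM after adjustment over the lists, by exact permutation tests (two-sided) that could reach 0.00952 at the least, so that a single list at that floor could not pass the adjustment. Of 3 further lists that bear on RNA quality, 9 nuclear-retained long noncoding RNAs had sums of 1920 to 2118 CPM in vehicle and 2057 to 2571 CPM at 6 mg/kg (log2 difference 0.18, SE 0.0619, unadjusted exact p 0.019), the smallest p of all 18 sums. Their part in the differences of the gene lists was not tested. All 10 oligodendrocyte markers had a positive log2 fold change, with a median of 0.24, and 3 of them were higher at p under 0.05 (30%, against 4.28% of all genes). Opalin and Mal, myelin genes, had log2 fold changes of 0.47 and 0.24, with overlapping groups and edgeR adjusted p of 0.383 and 0.515. The summed oligodendrocyte markers ranged from 2500 to 3757 CPM in vehicle and from 3376 to 3971 CPM at 6 mg/kg, a log2 difference of 0.25 (SE 0.140) with an exact p of 0.105 and an adjusted p of 0.394. Without vehicle library 8 all 10 markers had a p under 0.05 and the median was 0.36, where 608 of all 14991 genes tested were higher. Without vehicle library 7 the median was 0.17 with 1 marker higher, beside 452 of 14991 genes. Markers of striatal neurons, whose sums are given above, also varied among the libraries: the lowest sum was in vehicle library 3, which also had the lowest oligodendrocyte sum, and the highest of both vehicle sums was in library 8. Whether the striatal and the myelin values are linked was not tested.

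The 7 excitatory neuron markers had a median of -0.04, 5 with a negative and 2 with a positive log2 fold change (-0.38 to 0.28). Of the 7 markers 3 were lower at p under 0.05 (42.9%, against 4.99% of all genes) and none higher (against 4.28%). These were Slc17a7, Camk2a and Neurod2, with log2 fold changes of -0.29, -0.21 and -0.38. The sum of the 7 markers had a log2 difference of -0.10 (SE 0.0973, exact p 0.371). For the 9 inhibitory neuron markers the median was 0.14, for the 11 astrocyte markers -0.01, for the 10 microglial markers 0.00 and for the 10 endothelial markers 0.10. Microglial sums ranged from 404 to 418 CPM in vehicle and from 393 to 446 CPM at 6 mg/kg. The 8 mural cell markers (pericytes and vascular smooth muscle) had sums of 192 to 227 CPM in vehicle and 218 to 250 CPM at 6 mg/kg. Their log2 difference was 0.18 (SE 0.0609, exact p 0.0286, adjusted p 0.214). Of the 8 markers 5 had a positive and 3 a negative log2 fold change (-0.24 to 0.36). Only 1 was higher at p under 0.05 (12.5%, against 4.28% of all genes). This was Rgs5, at 61.7 ± 10.6 and 79.3 ± 7.85 CPM. The 2 tested olfactory bulb markers had sums of 17.8 to 23.6 CPM in vehicle and 14.2 to 19.4 CPM at 6 mg/kg. Their log2 difference was -0.34 (SE 0.11, exact p 0.0286, adjusted p 0.214). The 2 markers went opposite ways, with log2 fold changes of -0.48 for Cdhr1 and 0.09 for Doc2g. Of 6 markers of upper cortical layers 4 had a positive and 2 a negative log2 fold change (-0.18 to 0.41), and of 10 markers of deep layers 4 were positive and 6 negative (-0.40 to 0.55). The summed markers had log2 differences of 0.12 (SE 0.0984, exact p 0.2) and -0.04 (SE 0.122, exact p 0.762). The haemoglobin gene Hba-a1 had 30.7, 90.1, 45.8 and 471 CPM in vehicle libraries and 7.46 to 63.6 CPM at 6 mg/kg. Vehicle library 8 held far more blood RNA than the rest, and without it the median of the 3 blood genes moved from -2.13 to -0.68.

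Differences followed the base composition and length of the transcripts across all genes. Among 14141 genes with known GC content and length, the log2 fold change had a Spearman correlation of -0.18 with GC content and -0.31 with length, across genes, which are not independent replicates. Of the lowest of 5 equal bins of GC content 8.62% were higher and 0.813% lower at p under 0.05, and of the highest bin 1.98% were higher and 8.84% lower. By length, 6.29% of the shortest bin were higher and 1.45% lower, against 1.49% and 10.4% of the longest bin. Libraries also differed in their own slope over GC content within groups, from -0.35 to 0.25 in vehicle and from -0.59 to 0.26 at 6 mg/kg. With an offset that removed both trends no gene passed, the smallest edgeR adjusted p being 0.0881 for Pdgfb and Pcdh1, whose log2 fold changes were -0.53 and -0.43. With each library's GC slope as a covariate, 130 genes passed, 24 higher and 106 lower. The offset left the medians of the immediate early genes (-0.32), PDGF family (-0.19), MAP kinase feedback (-0.15), interferon genes (0.18) and oligodendrocyte markers (0.22) near their values, and took those of ribosomal proteins from 0.12 to 0.03, of respiratory chain genes from 0.10 to 0.01 and of delta protocadherins from -0.12 to -0.05.

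**Figure D3:**
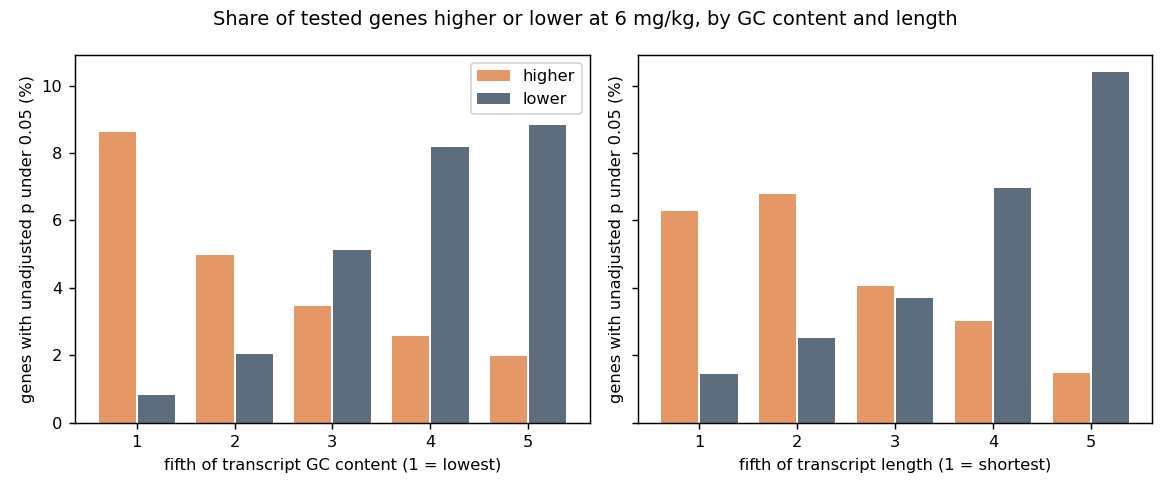
Percentage of tested genes with an unadjusted p under 0.05 that were higher or lower at 6 mg/kg, in 5 equal bins of transcript GC content and of transcript length. Lower genes make up 0.813% of the lowest and 8.84% of the highest GC bin, and 1.45% of the shortest and 10.4% of the longest bin.

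**Figure D4:**
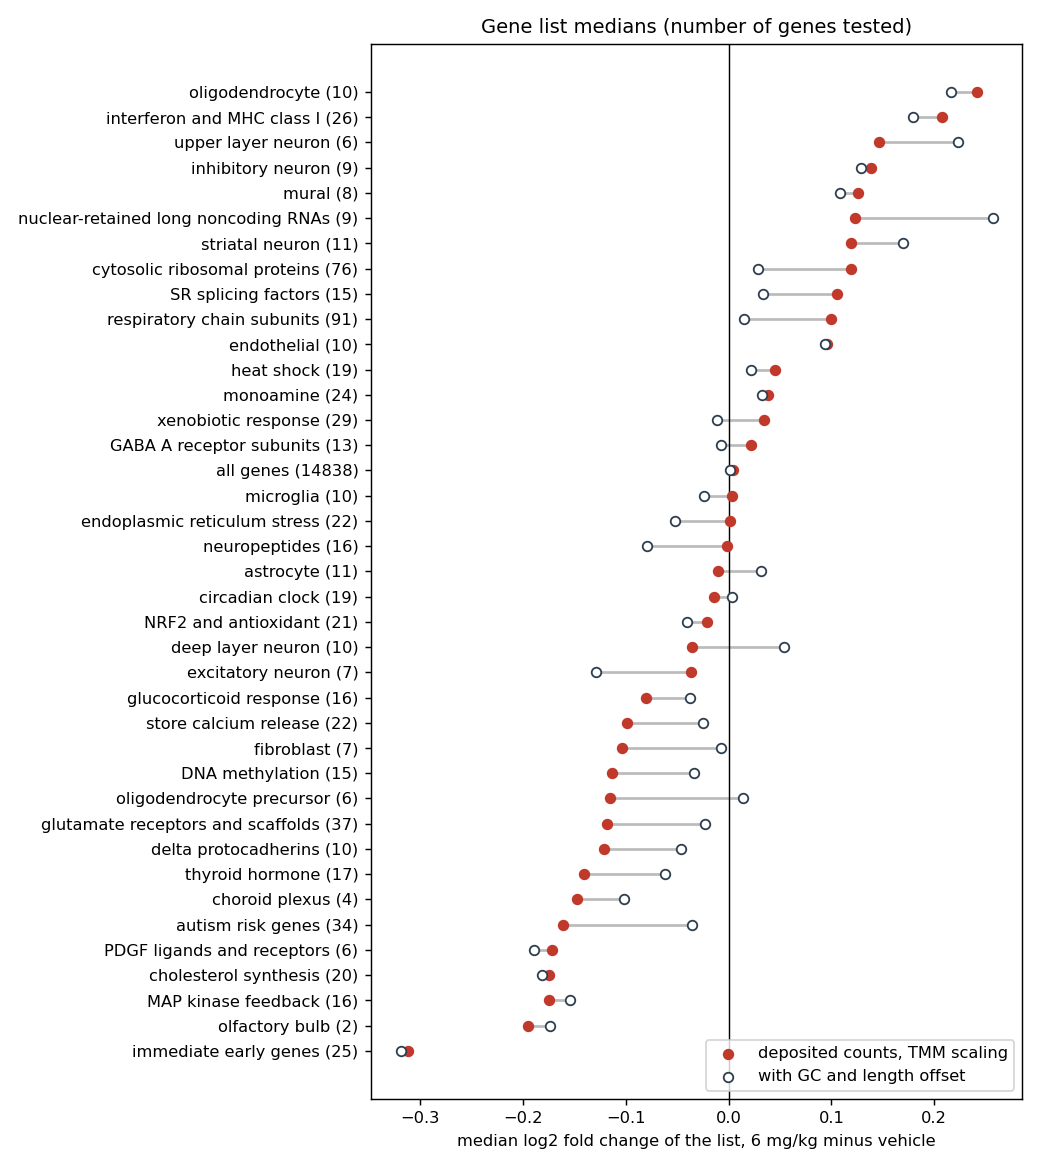
Median log2 fold change of each gene list, 6 mg/kg minus vehicle, with the deposited counts (filled) and with an offset for GC content and length (open), blood genes left out. The immediate early genes have the lowest median under both (-0.31 and -0.32), while autism risk genes move from -0.16 to -0.04.

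The intermediate doses placed the leading genes in a series. A slope over the rank of the dose, fitted to all 21 prefrontal libraries, passed an edgeR adjusted p of 0.05 in 3 of 14838 genes (0.0202%), all of which fell with dose. It shares the vehicle and 6 mg/kg libraries with the direct comparison and is not independent of it. Pdgfb fell by 0.21 on the log2 scale per dose rank (SE 0.0354, edgeR adjusted p 0.0186), with means of 52.1, 53.7, 42.6 and 35.2 CPM from vehicle to 6 mg/kg. Pcdh1 fell by 0.20 per rank (SE 0.0329, edgeR adjusted p 0.0186), with means of 387, 363, 312 and 262 CPM. Dusp4 fell by 0.35 per rank (edgeR adjusted p 0.0337), with means of 24.6, 24.3, 15.5 and 13.2 CPM. In Pdgfb and Dusp4 the mean at 0.1 mg/kg was within the SD of vehicle and the means were lower from 1 mg/kg on. Srsf6 had means of 76.0, 85.3, 90.2 and 96.6 CPM, with an edgeR adjusted p of 0.0799 for its slope. None of the 3 slopes passed without vehicle library 7, where the adjusted p were 0.101, 0.139 and 0.162, or without 6 mg/kg library 55, 56 or 58, and only Pdgfb passed without vehicle library 4. Dusp4 alone was lost without vehicle library 8, 6 mg/kg library 52, libraries 41, 42, 46, 48 or 50 at 1 mg/kg, or libraries 23, 25 or 28 at 0.1 mg/kg, with edgeR adjusted p between 0.0511 and 0.106. With the slope taken over mg/kg, Pdgfb and Pcdh1 passed and Dusp4 did not (edgeR adjusted p 0.044, 0.0456 and 0.0972). The lower doses share the vehicle libraries with 6 mg/kg: at 1 mg/kg no gene passed edgeR's test and 1230 (8.29%) had an unadjusted p under 0.05, and at 0.1 mg/kg none passed and 954 (6.43%) did.

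The same dose was compared between tissues by testing the interaction of tissue and treatment over the vehicle and 6 mg/kg libraries. Against the striatum no gene of 15043 passed, and 967 (6.43%) had an unadjusted p under 0.05 in edgeR, while DESeq2 called 0 and had 1059. The leading genes were named for their prefrontal difference, so their values in the other tissues are a description. In the striatum 11 of the 12 lower genes had a negative and 7 of 11 tested higher genes a positive log2 fold change. Pdgfb had -0.04 (SE 0.154) in the striatum, with an interaction of -0.51 (SE 0.169, unadjusted p 0.00585, edgeR adjusted p 0.746). Dusp4 and Pcdh1 had -0.61 and -0.33 there. Ppwd1, higher in the prefrontal cortex, had -0.27 in the striatum. Gm5512, a predicted gene, had 0.76 in prefrontal libraries and -1.08 in striatal ones.

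Against the liver 129 of 14351 genes (0.899%) passed the interaction in edgeR with a spread pooled over both tissues. Without each library number in turn the count ran from 2 (without vehicle number 3) to 762 (without 6 mg/kg number 55). Each value below is therefore given also with a test that uses the spread of each tissue separately, added after seeing the data, under which 377 of 11885 genes passed. Dnajb9, a chaperone of endoplasmic reticulum stress, had a log2 fold change of 0.09 (SE 0.0811) in the prefrontal cortex and -1.87 in the liver, an interaction of 1.97 (edgeR adjusted p 0.00265 pooled, 0.000151 with separate spreads). Trib1, a pseudokinase, had -0.47 in the prefrontal cortex and 1.02 in the liver, an interaction of -1.48 (edgeR adjusted p 0.00412 and 0.000916). Of the 8 lower genes tested in liver, 7 had a positive log2 fold change there. Of the 9 higher genes tested in liver, 6 had a positive and 3 a negative one. The shares of all genes with each sign in liver and striatum are not given here, so these counts only describe the named genes. Chd3 had -0.36 and 1.24 in prefrontal cortex and liver (interaction -1.58, edgeR adjusted p 0.0317 pooled and 0.00535 with separate spreads), Sdc3 -0.33 and 0.65 (0.0321 and 0.0131) and Jade2 -0.44 and 0.50 (0.0321 and 0.0135). The pooled calls of Chd3, Sdc3 and Jade2 were lost without any of the 4 vehicle numbers, with edgeR adjusted p between 0.0565 and 0.132, and without 6 mg/kg number 54 or 58, with 0.0568 to 0.0714. Chd3 and Jade2 were also lost without number 52 (0.0523 and 0.0532) and Sdc3 without number 53 (0.0503). The adjusted p of Dnajb9 and Trib1 stayed under 0.05 without each number in turn.

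**Figure D5:**
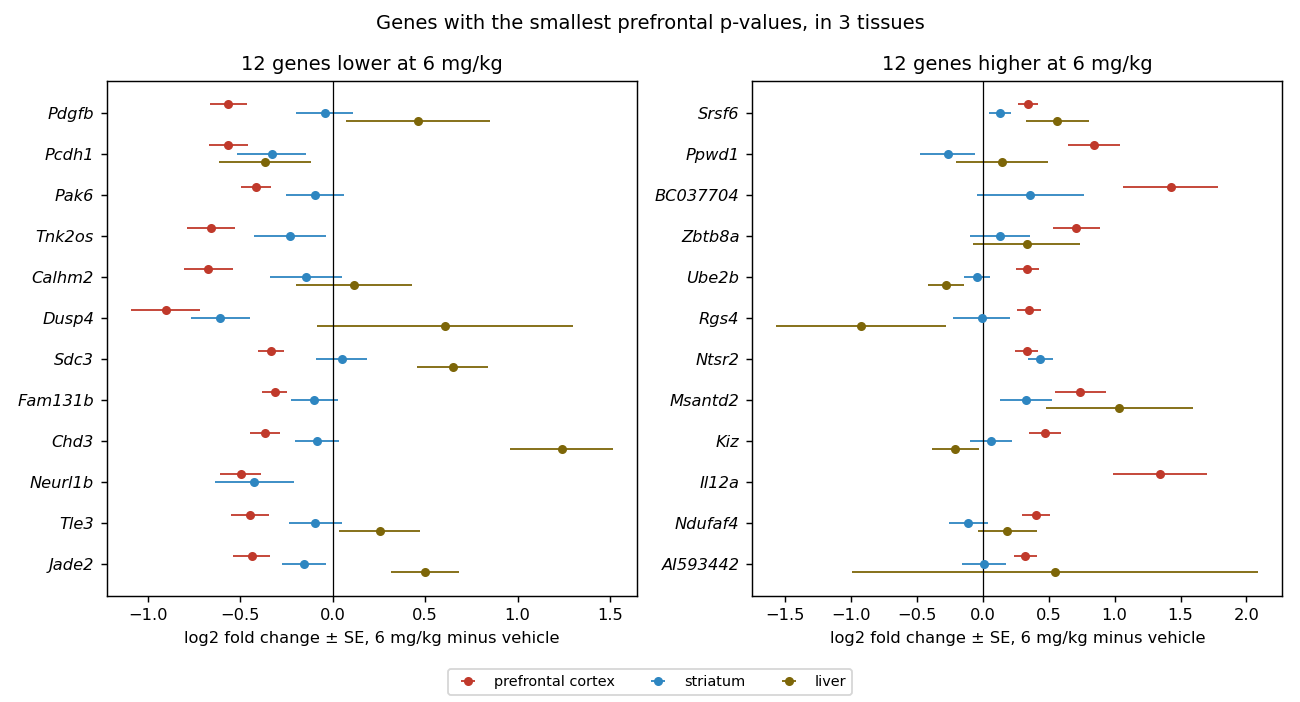
Log2 fold change ± SE of 6 mg/kg minus vehicle in the prefrontal cortex, striatum and liver for the 12 lower and 12 higher genes with the smallest prefrontal p. Chd3 lies at -0.36 in the prefrontal cortex and 1.24 in the liver, and Pdgfb at -0.56 in the prefrontal cortex and -0.04 in striatum. Genes not tested in a tissue have no point.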

How the data were processed

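RNA-seq counts of 21 prefrontal cortex libraries were analysed, with those of the striatum and liver for the interactions. The authors deposited whole-number read counts per gene, with Entrez identifiers, in a table for each tissue. Reads were aligned to mm10 with HISAT2 after FastQC, per the submitters' processing notes; the counting tool, annotation and use of strand are not given in the sources used here. Messenger RNA was enriched by poly(A) capture or by ribosomal RNA depletion, and the labels' protocols do not say which. The prefrontal table lists 17653 genes, each with at least 10 counts in all, and RefSeq (GRCm38.p6) named 99.97% of them.

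The main model was edgeR 4.0.16 under R 4.3.3: filterByExpr by dose group, TMM scaling, robust quasi-likelihood over all 4 dose groups, Benjamini-Hochberg adjustment and a threshold of 0.05. The standard error is the absolute log2 fold change over the square root of F. For log2 CPM the prior count was 2. The slope used dose ranks, and the interactions used the vehicle and 6 mg/kg libraries of both tissues. The main, slope and interaction fits, separate spreads, the GC and length offset and DESeq2's direct comparison were tested on simulated data. There the pooled liver interaction made more false calls than its threshold allows. The fits with a surrogate variable or with the GC slope as covariate were not tested in this way. Each gene's longest transcript in GENCODE vM21 gave GC content and length, known for 95.3% of the tested genes. Alternatives used DESeq2 1.42.0, sva 3.50.0, other filters and scalings and the removal of each library; some were added after seeing the data (the vehicle and 6 mg/kg libraries with a positive GC slope left out, list medians under every alternative, separate spreads). Summed CPM was tested exactly with scipy 1.17.1. No pair of replicate libraries agreed within sampling noise (lowest chi-square 4.84 per degree of freedom, genes of 20 counts or more in the pair).

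Named genes are the 12 with the smallest p in each direction, the 3 with the smallest p of each list, slopes that passed, 2 of each interaction, the tissue markers and all members of the MAP kinase feedback, PDGF and delta protocadherin lists; others in lists are given after their values were seen. The comparison and the 39 gene lists were chosen with earlier results of these data known. Lists are described by counts and medians, with no set test. The values of some genes are not reported here.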

Additional observations from a re-analysis of the deposited data

Results flagged for a closer look

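In 184 groups of 4 to 6 libraries, 18 held a library whose gap to its nearest neighbour was large for the range of its group. Chance would give about 9.2 if the groups were independent. They are not, since the sums hold the values of their member genes, and the excess was not tested. Among 6 mg/kg libraries, 54 was high for Fosb (25.4 CPM, the next library 17.0), Egr2 (15.6, next 7.39) and Dusp6 (107, next 70.9), and 55 was high for Ntsr2 (133, next 117), Gstm1 (177, next 149), Lamp5 (241, next 178) and the sum of ribosomal protein genes (14270, next 11020). Library 56 was low for Sdc3 (192 CPM, next 223) and library 52 high for Srebf2 (343, next 319). Among vehicle libraries, 8 was high for Hba-a1 (471 CPM, next 90.1), Hbb-bt (109, next 15.4), the sum of blood genes (583, next 105.8) and Egr2 (22.1, next 13.8), and low for Sqle (71.6, next 85.4). Vehicle library 7 was high for Sdc3 (292 CPM, next 281) and low for Ube2b (111, next 125), and vehicle library 3 was high for AI593442 (247, next 224) and low for Tet3 (70.6, next 76.4).

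The prefrontal and liver differences at 6 mg/kg differed by edgeR's interaction test (prefrontal minus liver, log2) for Chd3 by -1.585 (adjusted p 0.0317), Sdc3 by -0.965 (0.0321), Jade2 by -0.921 (0.0321), Tsc1 by -0.974 (0.0333), Trib1 by -1.476 (0.00412) and Dnajb9 by 1.972 (0.00265). These are from the test with a pooled spread, which made more false calls on simulated data than its threshold allows. With separate spreads the adjusted p were 0.00535, 0.0131, 0.0135, 0.0381, 0.000916 and 0.000151 in the same order, and the pooled call of Tsc1 was lost without any vehicle number or without 6 mg/kg number 52, 54 or 58 (edgeR adjusted p 0.0601 to 0.14).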

How the results depend on the processing

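In the direct comparison, where edgeR called 0 genes, DESeq2 called 27, a fit with 1 surrogate variable 86 and a fit with the GC slope as covariate 130. Other scaling, filters, the GC and length offset, the pair of groups alone and the joint removal of vehicle libraries 7 and 8 and 6 mg/kg library 55, those of the 2 groups with a positive GC slope, gave 0. Leaving out each library gave 0 to 1, the 1 being Pdgfb without 6 mg/kg library 54 (edgeR adjusted p 0.00549). Without vehicle library 7 the smallest adjusted p was 0.763 and the genes at an unadjusted p under 0.05 numbered 926. The slope passed in 3 genes, in 65 with DESeq2 and in 6 over mg/kg, 2 of them among the 3 (Dusp4 was lost), and in 0 to 3 without each library. The striatal interaction gave 0 throughout. The liver interaction gave 129 calls, 928 with DESeq2, 377 with separate spreads, and 2 to 762 without each number; the cause was not tested. Of 1345 alternative values for the fold changes of 71 named genes, 0 had another sign. Many of these genes were chosen by their p in this contrast, and the alternatives reuse its libraries. Their kept signs are therefore a description and no independent check. Of 741 alternative list medians 61 had another sign, in 16 of 39 lists. Leaving out 1 library turned the sign of the log2 difference in summed markers, none of it called, of microglia (-0.024 to 0.013), fibroblasts (-0.142 to 0.047), choroid plexus (-0.059 to 0.423), striatal neurons (-0.067 to 0.391) and deep layers (-0.119 to 0.039).

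The labels do not say that a number marks an animal. Same-numbered prefrontal and striatal libraries had a mean correlation of 0.117 (-0.0906 to 0.237), and 5 of 10 correlated best with their own number; with liver the mean was -0.0052 and 1 of 10 did. With the number as a replicate block the striatal interaction gave 0 calls and the liver interaction 2, Dnajb9 and Trib1 (edgeR adjusted p 0.0181 each).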
